A study of Mus musculus with 29 samples.

Results

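The table of small RNA counts from mouse gonadal white adipose tissue (gWAT) holds 140 mature miRNAs that were predicted from the reads and carry names starting with novel_mir instead of a miRBase name. Of these, 53 had a mean raw count above 10 over the 29 libraries, and they are described here. They were chosen by that measured mean, which takes no account of the groups, so their abundance is a description and not a finding. The 2 groups were 15 diabetes-prone (DP) and 14 diabetes-resistant (DR) female New Zealand Obese mice of the strain NZO/HIBomDife, 1 library for each mouse. All mice were 10 weeks old and had received a high-fat diet for 5 weeks, after which a risk score divided them, so that the DP label is a forecast made before hyperglycemia and not a measured disease. The strain is inbred and the DR mice, the healthy controls, carried the same genome and ate the same diet. Each library also carries a number between 183 and 212 in its name, whose meaning the labels do not give. Numbers below 200 belonged to 10 DP and 6 DR libraries, and numbers from 200 to 5 DP and 8 DR libraries.

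A miRNA is cut from a hairpin-shaped precursor by the enzymes Drosha and Dicer and is loaded onto an Argonaute protein, where its seed, the bases from position 2 to 8, pairs with messenger RNAs and lowers their output. Prediction programs such as miRDeep2 look for genomic places that could fold into such a hairpin and where the reads pile up as Dicer products would. A predicted miRNA therefore has a read pattern but neither an accepted name nor a known target, and the same kind of pile-up can come from fragments of other RNAs.

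The sequences and loci of the 53 predicted miRNAs were not analysed here. Shown instead are the mature sequences of a selection of miRBase-named miRNAs whose levels ran close with those of predicted miRNAs that differed between DP and DR. They are printed so that the partners can be recognised by their seeds, they come from RefSeq on the build GRCm38.p6, and they are not the sequences of the predicted miRNAs. Capitals mark the seed.
mmu-let-7b-5p: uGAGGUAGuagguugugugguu
mmu-let-7c-5p: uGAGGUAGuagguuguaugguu
mmu-let-7f-5p: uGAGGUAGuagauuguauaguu
mmu-let-7g-5p: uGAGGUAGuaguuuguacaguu
mmu-miR-98-5p: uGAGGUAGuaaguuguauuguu
mmu-miR-26a-5p: uUCAAGUAauccaggauaggcu
mmu-miR-339-5p: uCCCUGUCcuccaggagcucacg
mmu-miR-423-5p: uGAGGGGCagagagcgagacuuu
mmu-miR-674-5p: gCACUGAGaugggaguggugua
The first 5 share the seed GAGGUAG of the let-7 family, which restrains growth and cell cycle genes, and were the partners of novel_mir45 and novel_mir133. On the plus strand, let-7b-5p lies in the miRNA gene Mirlet7b at chr15:85707325-85707346, let-7g-5p in Mirlet7g at chr9:106178846-106178867 and miR-98-5p in Mir98 at chrX:151913229-151913250. The other seeds differ from that of let-7 and from each other. miR-26a-5p was the partner of novel_mir117, miR-339-5p of novel_mir39, miR-423-5p of novel_mir124 and miR-674-5p of novel_mir28. The nearest named miRNAs of novel_mir57, novel_mir97, novel_mir118, novel_mir2 and novel_mir42 are not printed, so the share of let-7 in this selection has no meaning.

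The RNAs with a name held 22299056 to 25232853 counts in DP libraries and 22217375 to 25274096 in DR libraries. Levels are given as counts or as CPM, which sets each library to one common total of mature and hairpin miRNA counts after TMM scaling. All 8 miRNAs listed for adipocytes were above 0 in every library, with a summed level between 25341 and 35323 CPM in DP mice, against between 33578 and 50674 CPM in DR mice. The 8 miRNAs listed for myeloid cells summed to between 2284 and 3435 CPM in DP mice and between 1449 and 2828 CPM in DR mice. The 2 endothelial miRNAs summed to between 55439 and 79477 CPM in DP mice and between 69416 and 99146 CPM in DR mice. miR-202-5p, listed for ovary, stayed at or below 0.479 CPM in every DP and 0.350 CPM in every DR library. The muscle list ranged from 9.68 to 342 CPM in DP and from 19.9 to 703 CPM in DR libraries, and the epithelial list from 28.0 to 94.8 CPM in DP and from 31.1 to 38.0 CPM in DR libraries. The lymphocyte miRNA miR-150-5p ranged from 3513 to 5813 CPM in DP and from 4792 to 8185 CPM in DR libraries, and the erythroid list from 9639 to 22141 CPM in DP and from 12381 to 22203 CPM in DR libraries. Adipocyte miRNAs were thus present throughout, and the summed levels of the adipocyte, myeloid and endothelial lists overlapped between the groups only in part. In bulk tissue, fewer cells of a type and less RNA per cell cannot be told apart, and the part of cell composition in the differences below was not tested.

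The counts of predicted miRNAs had a floor. Among all 4060 values of the 140 predicted miRNAs, 2268 were 0, none was between 1 and 9 and 139 were exactly 10. The miRBase-named mature miRNAs held 12620 values between 1 and 9. A predicted miRNA listed at 0 may therefore have had fewer than 10 reads in that library. Of the 53, 28 were above 0 in every library, 14 were listed at 0 in 1 to 5 libraries and 11 in more than 5. The number listed above 0 ranged from 40 to 52 in DP libraries (median 47.0) and from 42 to 51 in DR libraries (median 47.5).

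The members just inside the threshold were novel_mir21, novel_mir64 and novel_mir130, with mean counts of 10.2, 10.7 and 12. Just outside it stood novel_mir15, novel_mir141 and novel_mir110 with mean counts of 9.86, 9.31 and 7.97. Of the 87 predicted miRNAs left out, 47 were above 0 in at most 3 libraries and 4 were above 0 in 15 or more.

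Abundance was concentrated in a few names. novel_mir133 held 47.7% of all counts of the 53, novel_mir59 9.71%, novel_mir32 8.34%, novel_mir86 7.99% and novel_mir91 5.08%, which makes 78.8% for these 5. Of the 53, 6 had a mean above 1000 counts, 9 a mean between 100 and 1000, and 38 a mean of 100 or less. Together the 53 made up 0.202% to 0.343% of the mature counts in DP libraries (median 0.243%) and 0.184% to 0.333% in DR libraries (median 0.275%), with the groups overlapping over most of that range.

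The comparison of DP with DR mice asks which miRNAs of gWAT differ between mice classed as prone and mice classed as resistant to later hyperglycemia. Over 1162 mature and hairpin miRNAs tested by quasi-likelihood in edgeR, with p-values adjusted after Benjamini and Hochberg, 11 of the 53 predicted miRNAs had an adjusted p under 0.05. That is 20.8% of them, beside 25.9% of all 1162 tested (301), a share close to that of all miRNAs. novel_mir118, novel_mir2, novel_mir28 and novel_mir124 rose in DP mice (4 of 53, beside 14% of all tested). novel_mir57, novel_mir97, novel_mir45, novel_mir117, novel_mir39, novel_mir133 and novel_mir42 fell (7 of 53, beside 11.9%). At an unadjusted p under 0.05, the threshold of the study, 13 of 53 passed, beside 37.6% of all tested, novel_mir98 and novel_mir78 being the additional ones.

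The median log2 fold change was -0.14 over the 53 and 0.02 over all 1162, with 35 predicted miRNAs below 0 and 18 above. This balance depended on the scaling, since 28 were below and 25 above 0 when libraries were scaled by their totals alone, which moved the median of all miRNAs to 0.09. Of the 28 predicted miRNAs that were above 0 in every library 10 were called, and 1 of the 25 listed at 0 somewhere, beside 25.9% of all 1162 tested. The median biological coefficient of variation, the spread between mice of a group beyond counting noise, was 0.505 for the 53 predicted miRNAs, 0.331 for the 28 without zeros and 0.971 for the 25 with zeros, while it was 0.228 for the 521 tested mature miRNAs with a miRBase name. The sets also differed in abundance, with a median log2 CPM of 1.17 for the 53, 3.02 for the 28 and 3.39 for the 521. The parts of abundance, the floor and library number in this spread and in the number of calls of each set were not tested.

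**Figure D1:**
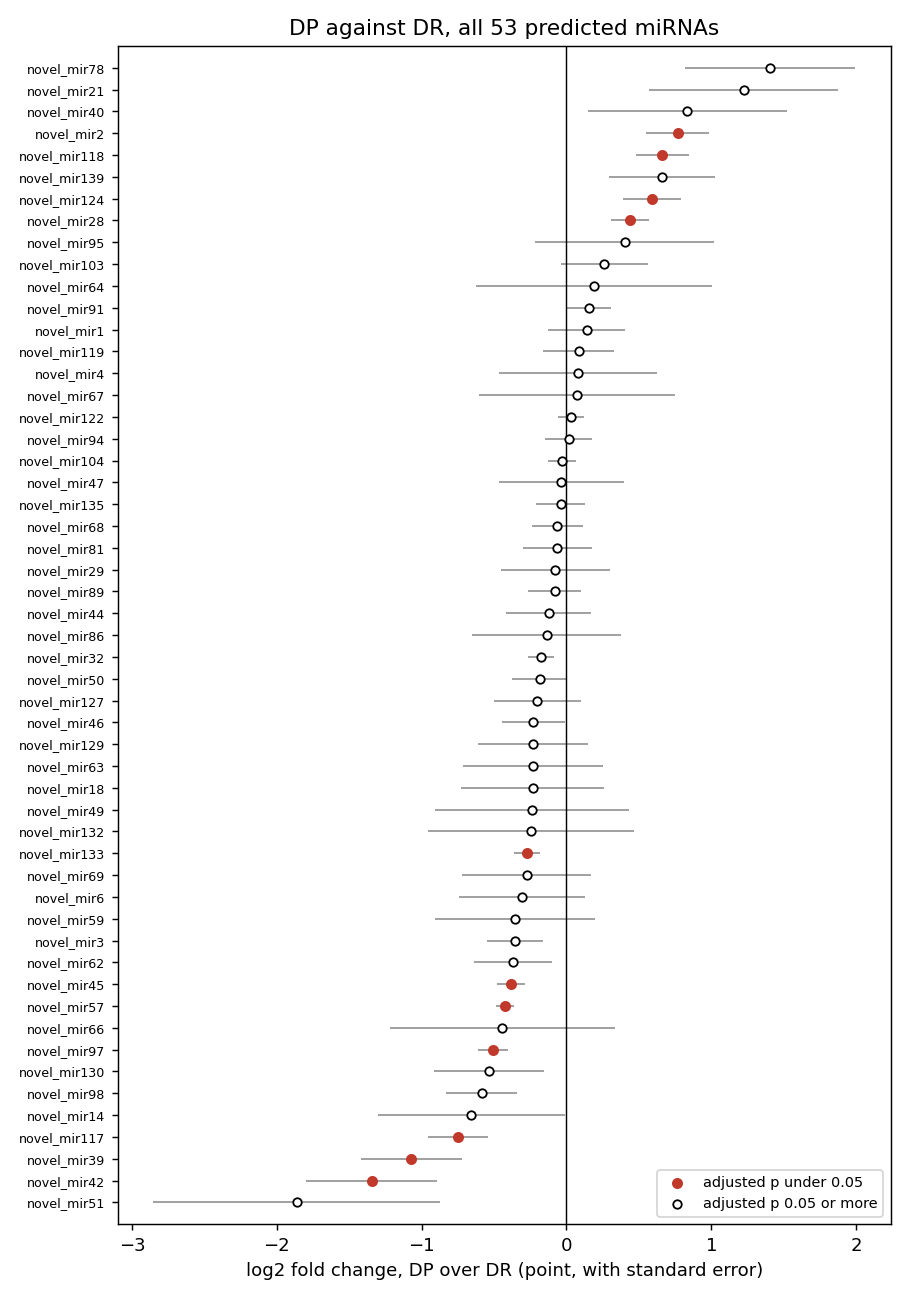
Log2 fold change of DP over DR for each of the 53 predicted miRNAs (points) with its standard error (bars), ordered by size, filled where the adjusted p was under 0.05. The 11 filled points lie between -1.35 and 0.77, and several of the longest bars belong to miRNAs listed at 0 in many libraries.

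Of the members that fell, novel_mir57 had the smallest p. It had 43.1 to 55.7 CPM in DP libraries (median 47.6) and 48.7 to 79.8 CPM in DR libraries (median 66.1). All 15 DP libraries lay below the DR median, although the ranges overlapped. The log2 fold change was -0.42 ± 0.064 (SE) with an adjusted p of 9.07e-06. Its nearest named miRNA was miR-143-3p, a miRNA of smooth muscle that is also linked to adipocyte differentiation, at r = 0.72 and rho = 0.70 (29 libraries, log2 CPM after subtracting group means), which itself fell by 0.47 on the log2 scale (SE 0.064, adjusted p = 2.47e-06).

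novel_mir97 had 11.2 to 29.3 CPM in DP libraries (median 20.3) and 25.5 to 34.7 CPM in DR libraries (median 29.2). Only 1 of 15 DP libraries was above the DR median, and the log2 fold change was -0.51 ± 0.10 (SE, adjusted p = 0.000375). It ran most closely with miR-320-3p (r = 0.81, rho = 0.68), a miRNA known to be cut without Drosha. The r was 0.83 within the libraries numbered below 200 (n = 16) and 0.20 within those from 200 (n = 13). Group means were not subtracted within these parts. miR-320-3p averaged 201 ± 73.7 CPM in DP mice and 254 ± 50.3 CPM in DR mice (SD, n = 15 and 14), with an adjusted p of 0.195.

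novel_mir45 and novel_mir133 ran with the let-7 family. novel_mir45 had 6.46 to 12.6 CPM in DP libraries (median 7.56) and 9.31 to 15.2 CPM in DR libraries (median 10.1), with 3 of 15 DP libraries above the DR median. Its log2 fold change was -0.38 ± 0.095 (SE, adjusted p = 0.00261), and its nearest named miRNAs were let-7b-5p (r = 0.86, rho = 0.78) and let-7c-5p (r = 0.76, rho = 0.51). let-7c-5p fell as well (log2 fold change -0.26, adjusted p = 0.0476), whereas let-7b-5p had a log2 fold change of -0.24 and an adjusted p of 0.0683.

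novel_mir133, the most abundant predicted miRNA, had 462 to 963 CPM in DP libraries (median 616) and 601 to 1062 CPM in DR libraries (median 750). Of the DP libraries, 14 of 15 were below the DR median. The log2 fold change was the smallest of the 11 in size, -0.27 ± 0.091 (SE, adjusted p = 0.0245), and the call was lost without DR library 203 (-0.24, adjusted p = 0.0539) or DR library 211 (-0.23, adjusted p = 0.0549). It ran with miR-98-5p (r = 0.84, rho = 0.81), let-7f-5p (r = 0.83, rho = 0.77) and let-7g-5p (r = 0.83, rho = 0.74), the sequences printed above with 1 seed. None of these 3 passed the test, with log2 fold changes of -0.06, -0.24 and -0.20 and adjusted p of 0.548, 0.0803 and 0.0712.

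novel_mir117 had 14 to 65 counts in DP libraries (median 37) and 30 to 96 counts in DR libraries (median 67). All 15 DP libraries lay below the DR median on the CPM scale. Its log2 fold change was -0.75 ± 0.21 (SE, adjusted p = 0.00646). Its partner miR-26a-5p (r = 0.63, rho = 0.52) fell by 0.33 on the log2 scale (adjusted p = 5.56e-05), and the r was 0.42 once the 2 libraries farthest from the median of novel_mir117 were left out.

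novel_mir42 showed the largest fall of the called members. It had 0 to 69 counts in DP libraries (median 41), where 4 libraries were listed at 0, and 11 to 135 counts in DR libraries (median 77.5), where none was. All 15 DP libraries were below the DR median in CPM. The log2 fold change was -1.35 ± 0.45 (SE, adjusted p = 0.0265), a fitted value that leans on the 0 entries and is no bound. With those zeros set to 9 the call was kept. Its nearest named miRNA, miR-376a-3p (r = 0.57, rho = 0.39), went the other way and rose by 0.45 on the log2 scale (adjusted p = 0.000135). This likeness was weak outside the DP libraries, with an r of 0.74 within the DP and 0.10 within the DR libraries. Without subtracting group means, the r was -0.10 within the libraries below 200 and 0.11 within those from 200.

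novel_mir39 had 10 to 124 counts in DP libraries (median 44) and 32 to 383 counts in DR libraries (median 99.5). Its log2 fold change was -1.07 ± 0.35 (SE, adjusted p = 0.0214). DR library 190 alone held 16.5% of its counts, and without that library the log2 fold change was -0.79 with an adjusted p of 0.0619. It followed miR-339-5p closely (r = 0.84, rho = 0.84), yet miR-339-5p averaged 16.4 ± 10.3 CPM in DP mice and 16.9 ± 7.70 CPM in DR mice (SD, n = 15 and 14) with an adjusted p of 0.931. Whether the 2 fold changes differ from each other was not tested.

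Of the 53, 4 rose in DP mice. novel_mir118 had 43 to 118 counts in DP libraries (median 92) and 11 to 82 counts in DR libraries (median 59.5), and 14 of 15 DP libraries exceeded the DR median in CPM. Its log2 fold change was 0.66 ± 0.18 (SE, adjusted p = 0.00671). Its nearest named miRNAs rose too, namely miR-222-3p (log2 fold change 1.16, adjusted p = 6.53e-06), miR-212-3p (0.84, adjusted p = 2.18e-06) and miR-34b-3p (0.94, adjusted p = 9.04e-07). The likeness with miR-222-3p, r = 0.66 over all libraries after subtracting group means, was 0.84 among the 14 DR libraries and -0.11 among the 15 DP libraries, and that difference was not tested.

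novel_mir2 had 11 to 78 counts in DP libraries (median 43) and 14 to 45 counts in DR libraries (median 21), with a log2 fold change of 0.77 ± 0.22 (SE, adjusted p = 0.00749). novel_mir28 had 140 to 358 counts in DP libraries (median 269) and 94 to 264 counts in DR libraries (median 192), with a log2 fold change of 0.44 ± 0.13 (SE, adjusted p = 0.0103). In both, 13 of 15 DP libraries lay above the DR median in CPM. miR-679-3p, the nearest named miRNA of novel_mir2 (r = 0.67, rho = 0.60), had a log2 fold change of 0.30 and an adjusted p of 0.224. The next nearest, miR-221-5p (r = 0.66, rho = 0.51), rose by a log2 fold change of 0.97 (adjusted p = 0.0364). The third, miR-541-5p (r = 0.65, rho = 0.48), had a log2 fold change of 0.26 and an adjusted p of 0.235. miR-674-5p, the nearest named miRNA of novel_mir28 (r = 0.77, rho = 0.75), rose by a log2 fold change of 0.52 (adjusted p = 0.000589).

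novel_mir124 had 18 to 54 counts in DP libraries (median 34) and 10 to 38 counts in DR libraries (median 20.5). Its lowest DR value stood at the floor of 10, and 14 of 15 DP libraries were above the DR median in CPM. The log2 fold change was 0.59 ± 0.20 (SE, adjusted p = 0.0288). It ran with miR-423-5p (r = 0.80, rho = 0.80), which averaged 183 ± 76.5 CPM in DP mice and 169 ± 62.0 CPM in DR mice (SD, n = 15 and 14, adjusted p = 0.744).

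**Figure D2:**
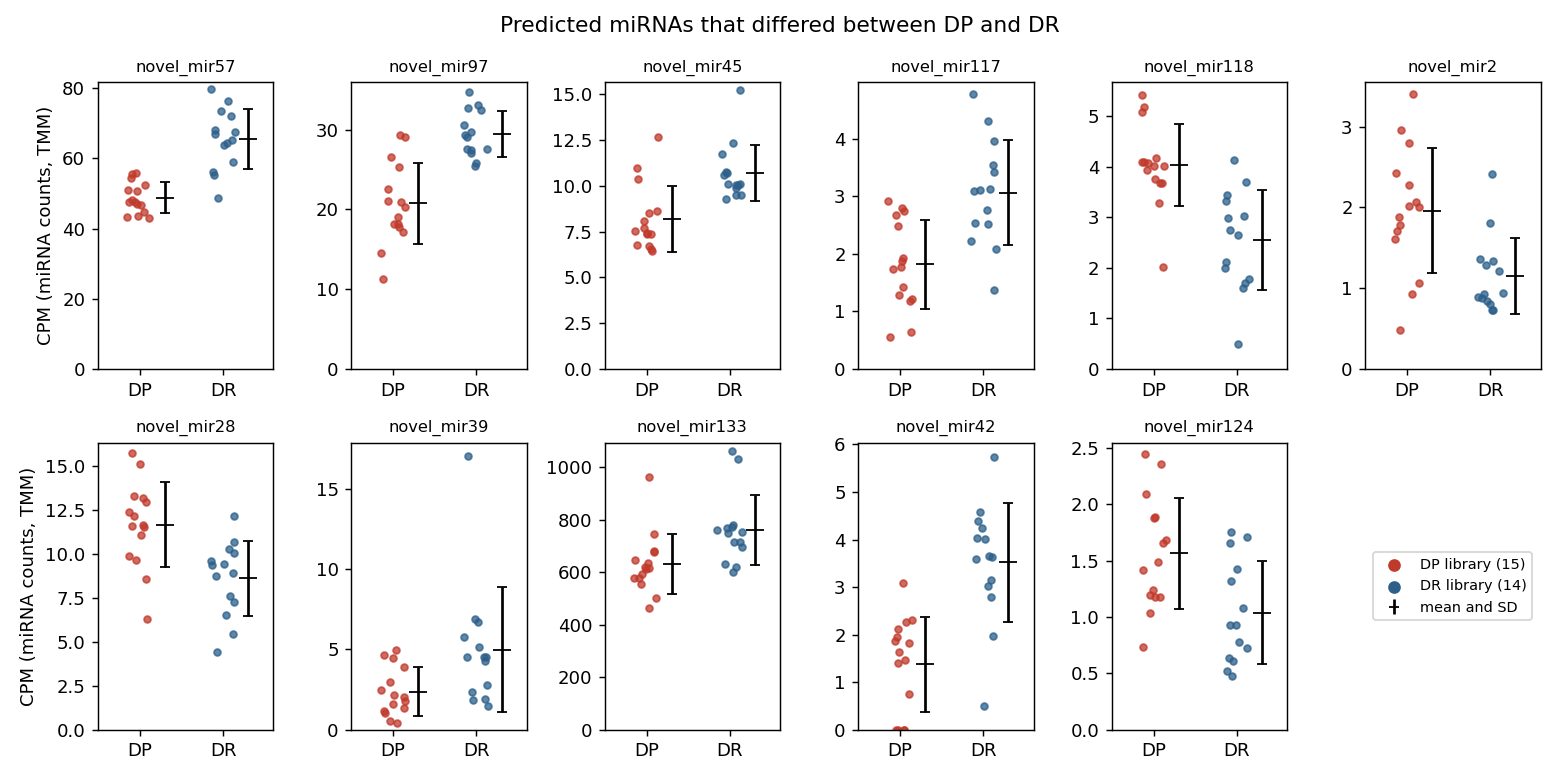
CPM of the 11 predicted miRNAs with an adjusted p under 0.05, each point 1 library, DP on the left (15) and DR on the right (14) of each panel, with the mean and SD drawn beside the points. The groups overlap in every panel, and novel_mir39 has 1 DR library at 17.0 CPM far above the others.

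The comparison was repeated within the lower and within the higher library numbers, divided at 200, a place taken from earlier results of these data. Within the libraries numbered below 200 (10 DP and 6 DR), 12 of the 53 predicted miRNAs passed, 10 of them among the 11, beside 25.9% of all tested. Within those numbered from 200 (5 DP and 8 DR), none of the 53 passed in edgeR, beside 0.344% of all tested. All 11 kept their sign there. For novel_mir57 the log2 fold changes were -0.42 in both parts and for novel_mir28 they were 0.51 below 200 and 0.48 from 200, while for novel_mir45 they were -0.49 below 200 and -0.10 from 200. The difference itself, an interaction of group with number 200 or above, was called for none of the 53 and none of the 1162 miRNAs by edgeR's quasi-likelihood test, and 3 of the 53 had an unadjusted p under 0.05 for it (5.66%, beside 6.2% of all tested). DESeq2 and limma-voom also called none of the 53 for the interaction.

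Library number was examined because it is the one label besides the group that differs between libraries. Earlier results of these data had also shown a component that follows it. In a fit with group, 7 of the 53 predicted miRNAs changed with library number at an adjusted p under 0.05, which is 13.2%, beside 17.6% of all tested (205). Of these, 4 were higher with number (beside 9.38% of all tested) and 3 lower (beside 8.26%). Per 10 numbers, novel_mir59 fell by 1.59 on the log2 scale (SE 0.26, adjusted p = 0.000316), novel_mir66 fell by 1.81 (SE 0.45, adjusted p = 0.00870) and novel_mir40 fell by 1.58 (SE 0.37, adjusted p = 0.00537). novel_mir3 rose by 0.36 (SE 0.089, adjusted p = 0.00786), novel_mir124 by 0.30 (SE 0.10, adjusted p = 0.0417), novel_mir45 by 0.16 (SE 0.046, adjusted p = 0.0224) and novel_mir97 by 0.15 (SE 0.053, adjusted p = 0.0420). Of the 7, novel_mir124, novel_mir45 and novel_mir97 are also among the 11 that differed between DP and DR.

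The course of novel_mir59, novel_mir66 and novel_mir40 was a step and not a slope. novel_mir59 had 3568 to 6853 counts in the 15 libraries numbered 183 to 198 and 5559 counts in DR library 205. DP library 199 had 1206 counts, DR library 200 had 2044 and DR library 201 had 2634, and the other 10 libraries had 246 to 423. novel_mir66 had 17 to 70 counts in libraries 183 to 198 and 53 in DR library 205, and was listed at 0 in the other 13. novel_mir40 had 36 to 99 counts in the first 15 libraries and 37 in DR library 205, and 0 to 15 in the rest. DR library 205 thus stood with the low numbers in all 3. The cause of the step was not tested.

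**Figure D3:**
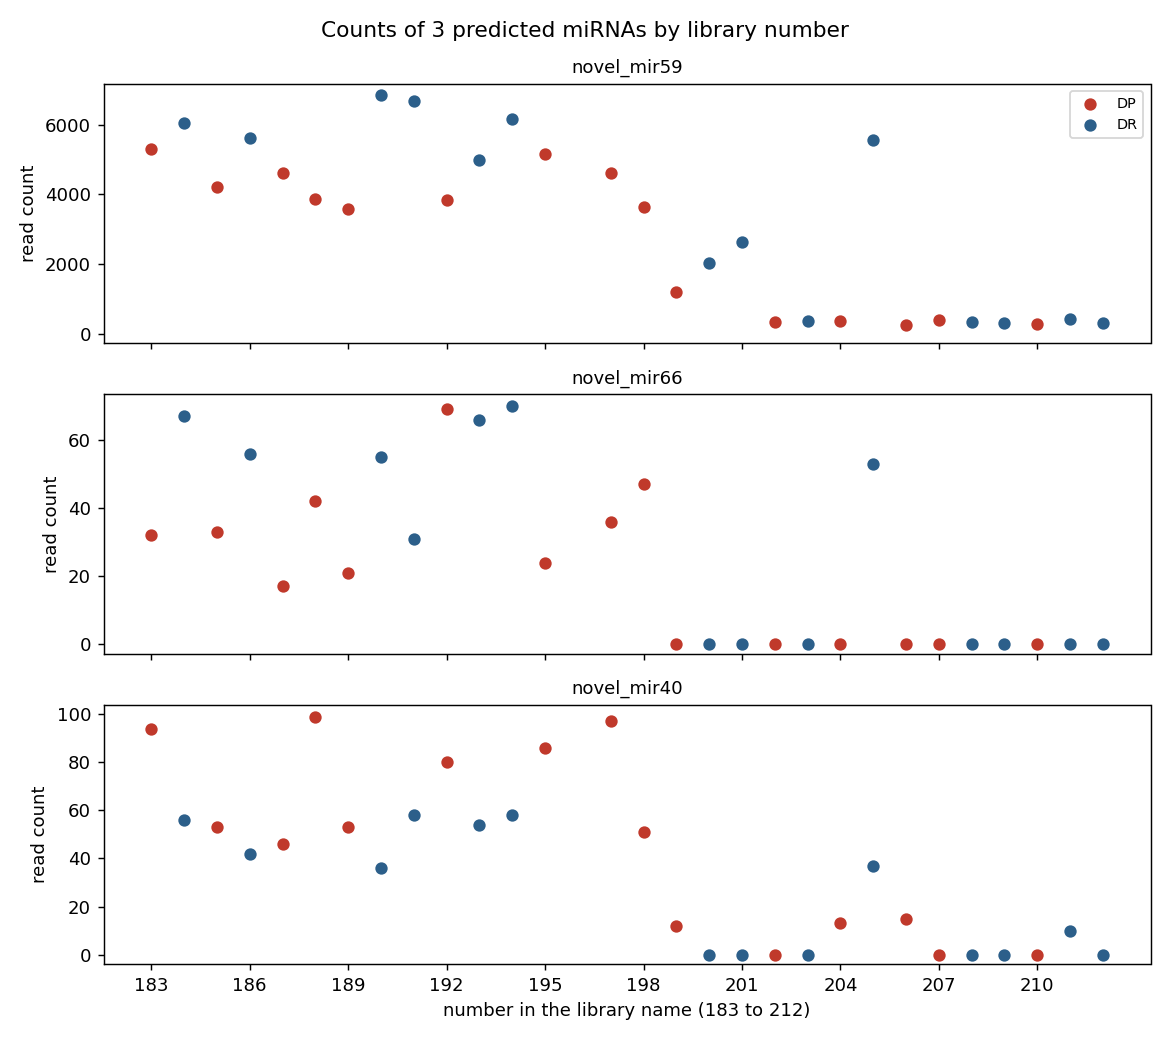
Read counts of novel_mir59, novel_mir66 and novel_mir40 (vertical axes, linear) against the number in the library name, with DP in red and DR in blue. All 3 are high from 183 to 198 and lower from 199 on, apart from DR library 205, which is high in each panel.

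Libraries of both groups stood on both sides of the step. With DP libraries alone, the log2 slope of novel_mir59 per 10 numbers was -1.77 (adjusted p = 0.0300), and with DR libraries alone it was -1.46 (adjusted p = 0.0902), which did not pass. Among all 1895 entries of the table with a mean count above 10, 10 divided the libraries at the same place without overlap in CPM. Besides these 3 they were 4 predicted piRNAs, novel_pir203, novel_pir205, novel_pir461 and novel_pir462, which were also higher in the low numbers and library 205, and miR-181b-5p, miR-412-5p and the hairpin entry of miR-5113, which were lower there. This list was drawn up after the step had been seen and carries no test. Because the libraries form separate clusters, no pooled correlation is given for these members. Within the libraries below 200 the r of novel_mir59 with miR-224-5p was 0.24 (n = 16), and within those from 200 it was 0.27 (n = 13). Group means were not subtracted for these values.

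The study named novel_mir29, novel_mir59 and novel_mir66 among its miRNAs of interest. The call of novel_mir59 between DP and DR depended on whether the number was considered. Over all libraries novel_mir59 had a median of 3630 counts in DP mice and 3808.5 counts in DR mice, with a log2 fold change of -0.36 ± 0.55 (SE, adjusted p = 0.672). Below 200, the DP libraries had 1206 to 5309 counts and the DR libraries 4983 to 6853 counts, a log2 fold change of -0.62 with an adjusted p of 0.0354. It was -0.55 (adjusted p = 0.000925) without DP library 199, the one in the middle of the step, an alternative chosen after its counts were seen. From 200, the DP libraries had 246 to 393 counts and the DR libraries 307 to 5559 counts, or 307 to 2634 counts without DR library 205. The medians there were 347 counts in DP libraries and 394.5 counts in DR libraries, or 366 counts without DR library 205, and the log2 fold change of -2.24 did not pass (adjusted p = 0.143). The intermediate counts of that part were those of DR libraries 200 and 201. With number 200 or above as a term the log2 fold change was -1.34 (adjusted p = 0.0152), and -1.04 (adjusted p = 0.0133) when DR library 205 was left out as well. With number as a linear term it was -0.84 and the adjusted p was 0.101. A term at 200 does not match the step, as DP library 199 already lay in its middle and DR libraries 200, 201 and 205 stood above the rest. In libraries 202 to 204 and 206 to 212, the counts were 246 to 393 in DP and 307 to 423 in DR libraries.

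novel_mir66 was listed at 0 in 6 of 15 DP libraries and 7 of 14 DR libraries. Where it was listed above 0, it had 17 to 69 counts in DP libraries and 31 to 70 counts in DR libraries. Its log2 fold change was -0.44 ± 0.77 (SE, adjusted p = 0.714), and -0.86 (adjusted p = 0.164) within the libraries below 200. Neither value passed the test, and limma-voom gave the opposite sign, 0.13 (adjusted p = 0.947).

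novel_mir29 varied more between mice than between groups. It had 92 to 1351 counts in DP libraries (median 402) and 104 to 1503 counts in DR libraries (median 442.5). The ranges nearly coincided, and the log2 fold change was -0.08 ± 0.37 (SE, adjusted p = 0.913). It rose and fell with other predicted miRNAs, most with novel_mir44 (r = 0.97, rho = 0.98) and then with novel_mir86 (r = 0.91, rho = 0.91) and novel_mir132 (r = 0.87, rho = 0.86), over 29 libraries after subtracting group means. These pairs were picked as the closest, so the values describe the data and have no test. The r of novel_mir29 with novel_mir44 was 0.97 within the 15 DP and 0.98 within the 14 DR libraries. It was 0.97 once the 2 libraries with the most extreme novel_mir29 were left out. Both below and from 200 it was 0.97, there without subtracting group means. No miRBase-named mature miRNA came as close, the nearest being miR-490-5p (r = 0.59, rho = 0.67).

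novel_mir86, the fourth in abundance, had 234 to 6061 counts in DP libraries (median 1464) and 266 to 6830 counts in DR libraries (median 2285). Its log2 fold change was -0.14 ± 0.52 (SE, adjusted p = 0.883). Its closest entry of any kind was a predicted piRNA, novel_pir155 (r = 0.96). novel_mir32 and novel_mir91 spanned narrower ranges. novel_mir32 had 1598 to 3905 counts in DP libraries (median 2497) and 1762 to 3957 counts in DR libraries (median 2703.5), with an adjusted p of 0.159. novel_mir91 had 578 to 2372 counts in DP libraries (median 1829) and 837 to 2268 counts in DR libraries (median 1448), with an adjusted p of 0.482.

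**Figure D4:**
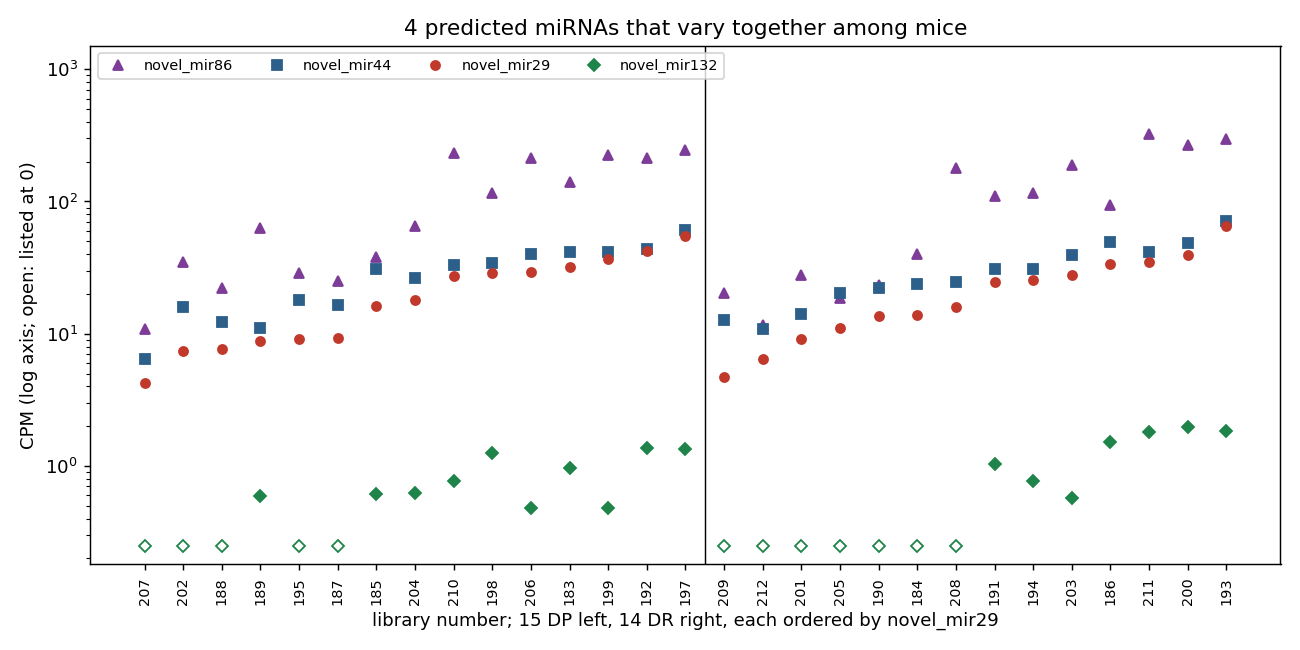
CPM (log axis) of novel_mir86, novel_mir44, novel_mir29 and novel_mir132 in each library, the 15 DP libraries left and the 14 DR libraries right of the line, each ordered by novel_mir29. The first 3 climb together in both groups, novel_mir29 between 4.25 and 54.9 CPM in DP and between 4.67 and 65.7 CPM in DR, and novel_mir132 is listed at 0 (open symbols) mostly where they are low.

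In some members 1 library held much of the count. For novel_mir51 it was DR library 200 with 400 counts, 40.7% of its total, for novel_mir64 DP library 204 with 54 counts (17.4%), and for novel_mir67 DP library 187 with 275 counts (17.1%). novel_mir51 was listed at 0 in 17 of 29 libraries, 11 of them DP and 6 DR. It had the most negative log2 fold change of the 53, -1.86 ± 0.99 (SE), with an adjusted p of 0.169.

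novel_mir67 and novel_mir51 ran with entries of the table for bacterial and archaeal RNA. The 2 libraries with the highest novel_mir67, DP library 187 with 275 counts and DR library 205 with 262 counts, also had the highest counts of the Rfam entry for bacterial small subunit rRNA, 24831 and 15389, while the other libraries had 1200 to 8884. Over 29 libraries the r of novel_mir67 with that entry was 0.68 (rho = 0.67), and 0.63 once the 2 farthest libraries were left out. For novel_mir51 it was 0.68 (rho = 0.64), and 0.66 without the 2 farthest. For novel_mir49 it was 0.58 (rho = 0.51). The Rfam entry for archaeal small subunit rRNA had r = 0.67 with novel_mir67, 0.69 with novel_mir51 and 0.68 with novel_mir49. For the bacterial large subunit rRNA entry these values were 0.60, 0.67 and 0.55. For the entry of the bacterial small signal recognition particle they were 0.71, 0.69 and 0.36, so novel_mir49 followed that entry less. That archaeal entry was also highest in DP library 187 and DR library 205, with 3518 and 2633 counts. These entries were chosen after their likeness was seen. The log2 fold change of novel_mir67 between DP and DR was 0.07 ± 0.68 (SE, adjusted p = 0.950). It was 2.40 below 200 (adjusted p = 0.0922) and -0.81 from 200 (adjusted p = 0.722), and the interaction had an unadjusted p of 0.0264 and an adjusted p of 0.784 in edgeR. Where these reads come from was not tested.

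**Figure D5:**
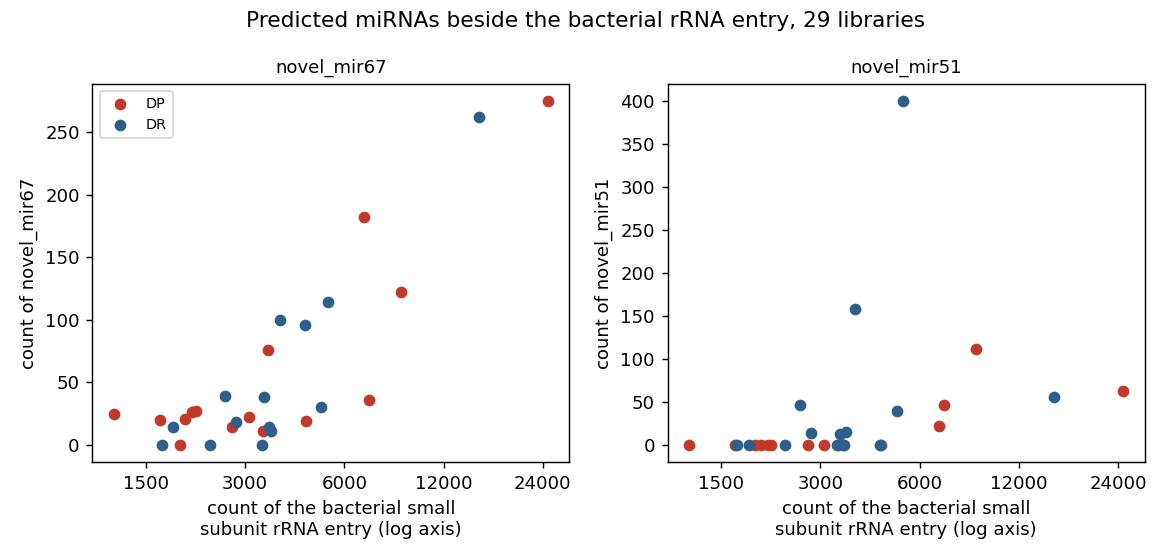
Counts of novel_mir67 (left) and novel_mir51 (right) against the count of the bacterial small subunit rRNA entry (log axis), 1 point for each of the 29 libraries, DP in red and DR in blue. The highest novel_mir67 counts, 275 in a DP and 262 in a DR library, lie at the highest rRNA counts, whereas the 400 counts of novel_mir51 lie at 5349.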

How the data were processed

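The 15 DP and 14 DR libraries are small RNA libraries of gWAT, 1 per mouse. According to the study's methods the authors used a BGISEQ-500 instrument and miRDeep2 for annotation. Bowtie2 and the build mm10 appear in the processing notes of the submitters. The deposited values are raw counts, 1 column for each library. How predicted miRNAs were scored, and why their counts hold no value between 1 and 9, is not given in the sources used here. The members and lists were chosen with earlier results of these data known.

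Mature and hairpin entries with a mean count above 10 (1162) were fitted in edgeR 4.0.16 (R 4.3.3) with TMM scaling and the quasi-likelihood test, as DP over DR, with Benjamini-Hochberg adjustment over these 1162, called at 0.05. The standard error was taken from the log2 fold change and its F value. Library number was fitted per 10 numbers beside group, and as an interaction with group at 200, a division taken from earlier results of these data. Whether reads carried molecular identifiers is not given in the sources used here, so the counting error of low counts may leave out amplification. Whether mice shared litters or cages is not stated, so p-values measure the spread between these mice. No hairpin entry starts with novel_mir, so that planned comparison was not run.

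Named members are novel_mir29, novel_mir59 and novel_mir66, those called for group (at most 12), the 5 most abundant, the 6 with the smallest p for number, 3 on each side of the threshold and the 4 with the largest share in 1 library. Likeness is Pearson's r of log2 CPM (prior count 2) after subtracting group means, which was not done within library number parts. It was set for 8 members, and the other called members, the other members and all entries of the table came later, after the data had been seen. Other members named were chosen after their values were seen. Alternatives were RLE scaling, library totals, library sizes from all named RNAs, other count filters, mature entries alone, the likelihood ratio test, DESeq2 1.42.0, limma-voom (limma 3.58.1), library number as a term or a subset, and each library left out. Setting zeros to 9 and leaving out libraries 199 and 205 were chosen after seeing the data. The edgeR fits of group, number and interaction were checked on simulated counts. Sequences were taken by name for 44 of 48 partners.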

Additional observations from a re-analysis of the deposited data

How the results depend on the processing

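No paired analysis was possible because the labels number no replicates and the numbers given here only follow accession order. The count of predicted miRNAs called for DP against DR, 11, lay between 9 and 14 under every alternative except the libraries numbered 200 and above alone, where 0 were called (0 higher, 0 lower) with fewer libraries. With a mean count above 50, which leaves 26 of the 53 to test, 2 were higher in DP instead of 4. Leaving out each library gave 10 to 12 calls (4 to 5 higher, 6 to 8 lower). No called fold change changed its sign. Beside the losses from 200 on, novel_mir133 was lost with library totals (adjusted p = 0.0527), with the likelihood ratio test (0.0506) and with number as a term without library 205 (0.0527), novel_mir124 without a filter (0.0711) and novel_mir42 within the libraries below 200 (0.0534). Within those libraries and without library 199, novel_mir2 (0.0664), novel_mir39 (0.0653) and novel_mir42 (0.0522) were lost. Over these alternatives and each library left out the adjusted p of novel_mir133 ranged from 0.00118 to 0.776, of novel_mir124 from 0.00128 to 0.209 and of novel_mir42 from 0.00150 to 0.552. Scaling by library totals moved the share of higher calls among all tested miRNAs to 70.0%, against 54.2%. For library number, 7 calls (4 higher with number, 3 lower) became 4 without a filter (1 higher) and 4 with a mean count above 50 (1 lower). They became 1 with DP libraries only (0 higher, 1 lower) and 0 with DR libraries only (0 higher, 0 lower), each of which holds about as many libraries as 1 group. Library totals gave 2 higher and 5 lower, and number without group gave 2 higher. Leaving out each library gave 5 to 8 calls (2 to 5 higher, 3 to 5 lower). Of these calls, novel_mir124 was lost in 13 and novel_mir97 in 11 of the 29 fits without 1 library, with adjusted p up to 0.0860 and 0.105, and the 5 others in none. The losses of novel_mir124 came without DP library 185, 187, 188, 202, 207 or 210 or DR library 186, 191, 193, 194, 208, 211 or 212, and those of novel_mir97 without DP library 183, 185, 204, 206, 207 or 210 or DR library 186, 190, 191, 193 or 212. Without DR library 211 the lower calls were 5. The interaction gave 0 calls among the 53 under every alternative run and every library left out. The cause of these changes was not tested where the smaller number of libraries or entries does not give it. For the 25 members listed at 0 somewhere, the floor is a limit, as a 0 cannot be told apart from fewer than 10 reads.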

Other observations

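For each of the 53 predicted miRNAs the entry of the table with the highest r was looked up among 1894 others with a mean count above 10, a search added after the data were seen. The closest entry was a mature or hairpin miRNA for 26 members, a predicted piRNA for 18 and another predicted miRNA for 5. How many of the 1894 belong to each kind is not given here, so these counts show no preference for a kind. The best r ranged from 0.50 to 0.97 with a median of 0.73, and 30 members reached 0.7. novel_mir32 ran closest with the hairpin entry of miR-125b-5p (r = 0.85), novel_mir91 with the hairpin entry of miR-700-3p (r = 0.92), novel_mir133 with the hairpin entry of let-7f-5p (r = 0.90) and novel_mir45 with that of let-7b-5p (r = 0.88). novel_mir42 ran closest with the predicted piRNA novel_pir329 (r = 0.91) and novel_mir62 with novel_pir699 (r = 0.89). All of these are correlations over 29 libraries that share depth and scaling, chosen as the highest of many, and they have no test.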
